A study of Mus musculus with 8 samples.

Results

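The genes described here encode growth cone and growth-associated membrane proteins, followed in mouse dorsal root ganglia, the sensory ganglia beside the spinal cord, 24 h after a sciatic nerve crush. They are Gap43, Basp1, Marcks, Marcksl1, Nrn1, Flrt3, Islr2, L1cam, Cd44 and Ecel1. They were chosen by symbol, and all 10 are among the 24033 gene symbols of the deposited count table. The injury group is lumbar (L4 to L6) ganglia of the crushed side, taken 24 h after the crush, in 4 libraries. The naive group is the matching ganglia of the uncrushed opposite side of the same mice, also in 4 libraries, so that naive here means the spared side of an operated mouse and not an unoperated one. Each repeat pooled ganglia of 2 mice and the tissue was dissociated. The sources used here do not state strain, sex or age. The libraries were QuantSeq 3′ mRNA-seq in its REV form, in which sequencing covers the ends of transcripts next to the poly(A) tail.

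A cut or crushed peripheral axon regrows by building a growth cone, a motile tip whose membrane is tied to an actin network. Gap43, Basp1, Marcks and Marcksl1 encode lipid-anchored proteins of the inner face of the membrane that bind acidic phosphoinositides and calmodulin, shape the actin beneath the membrane and are substrates of protein kinase C. The other members act at the cell surface: Nrn1 (neuritin) is a GPI-anchored neurite growth factor, Flrt3 and Islr2 are leucine-rich repeat receptors, L1cam is an immunoglobulin-family adhesion molecule, Cd44 is the main hyaluronan receptor and Ecel1 is a membrane protein of the M13 metallopeptidase family.

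The coding starts of the lipid-anchored members are shown because they carry the anchor itself. These genes were picked from the members for that anchor, so finding its codons is no test. They were read from the GENCODE M21 transcripts (build GRCm38), 30 bases from the ATG, 5′ to 3′ on the coding strand. Capitals mark the codon for glycine 2, the myristoylated residue, in Basp1, Marcks and Marcksl1, and the codons for cysteines 3 and 4, the palmitoylated residues, in Gap43. The positions are chr16:42340473-42340502 (minus strand) for Gap43, chr15:25364880-25364909 (minus) for Basp1, chr10:37138506-37138535 (minus) for Marcks and chr4:129513830-129513859 (plus) for Marcksl1.
Gap43: atgctgTGCTGTatgagaagaaccaaacag
Basp1: atgGGAggcaagctgagcaagaagaagaag
Marcks: atgGGTgcccagttctccaagaccgcagcg
Marcksl1: atgGGCagccagagctctaaggctccccgg
A glycine codon at position 2 was present in 939 of 12677 tested genes with a complete coding sequence, 7.41%. Of the members, only Basp1, Marcks and Marcksl1 had it. The same proteins are rich in alanine, glutamate, lysine and proline: these residues made up 55.9% of 227 codons in Gap43, 70.8% of 226 in Basp1, 63.8% of 309 in Marcks and 49.5% of 200 in Marcksl1, against a median of 25.7% over the 12677 genes.

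Marcks and Marcksl1 also share the basic effector domain through which they bind the membrane and calmodulin and are phosphorylated. The 25 codons richest in lysine and phenylalanine in Marcks (codons 145 to 169, chr10:37136531-37136605, minus strand) and the best-matching stretch of Marcksl1 (codons 86 to 110, chr4:129514885-129514959, plus strand) are given with the phenylalanine codons in capitals.
Marcks: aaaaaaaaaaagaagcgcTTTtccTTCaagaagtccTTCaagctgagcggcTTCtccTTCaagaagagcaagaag
Marcksl1: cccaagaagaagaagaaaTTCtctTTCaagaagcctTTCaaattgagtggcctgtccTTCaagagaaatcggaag
The stretches were identical at 52 of 75 bases and at 18 of 25 amino acids, and Marcks held 12 lysines and Marcksl1 10.

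Levels are given in CPM, a gene's count per 1e6 counts of its library, with library sizes scaled by TMM. Library totals ranged from 15422482 to 29368107 counts. On the first principal component of the log2 levels (31.0% of the variance) all injury libraries were below all naive ones, and on the second (16.6%) naive replicate 1 stood apart at 46.6 against -21.1 to 11.3 in the others. All 5 axotomy genes used to check the labels (Atf3, Jun, Sox11, Sprr1a and Gal) were higher in every injury library than in every naive one. Of 12 pan-neuronal markers, 1 rose (Stmn2) and 1 fell (Isl1), and their summed level was 27771 to 32698 CPM in injury libraries and 26573 to 29324 CPM in naive ones. The summed levels of the other cell types overlapped too, at 1457 to 1694 CPM in injury and 1309 to 1671 CPM in naive libraries for 8 satellite glial markers (1 called higher, Glul) and at 719 to 923 CPM in injury and 741 to 1105 CPM in naive libraries for 8 myelinating Schwann cell markers (0 called by edgeR, DESeq2 or limma-voom, 1 at an unadjusted edgeR p under 0.05). The median log2 fold change (injury minus naive) was -0.002 over the neuronal, 0.09 over the satellite glial and -0.52 over the Schwann cell markers. Leukocyte, vessel and fibroblast markers are given beside Cd44.

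After injury Gap43, Basp1, Marcks, Flrt3, Cd44 and Ecel1 rose, Nrn1 and Islr2 fell, and Marcksl1 and L1cam did not pass the test. Changes are given as log2 fold changes (injury minus naive) from edgeR's quasi-likelihood fit; a gene was called at a Benjamini-Hochberg adjusted p under 0.05. All 10 members passed the low-count filter, and 6 were called higher and 2 lower. Over all 13639 genes tested, 12.6% were called, 8.12% higher and 4.47% lower, so that 64.5% of the calls were higher. With library totals in place of TMM 47.0% were, and the median over all genes shifted to -0.06, with the same member calls. The groups did not overlap in 7 of the 10 members, against 16.8% of all genes tested. Injury was above in 5 members (9.8% of all genes) and below in 2 (7.02%). The median log2 fold change was 0.49 over the members and -0.004 over all genes. The members had been picked with earlier results of these data known, so these counts describe the set. In libraries of dissociated ganglia, fewer cells of a type and less RNA per cell cannot be told apart.

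**Figure D1:**
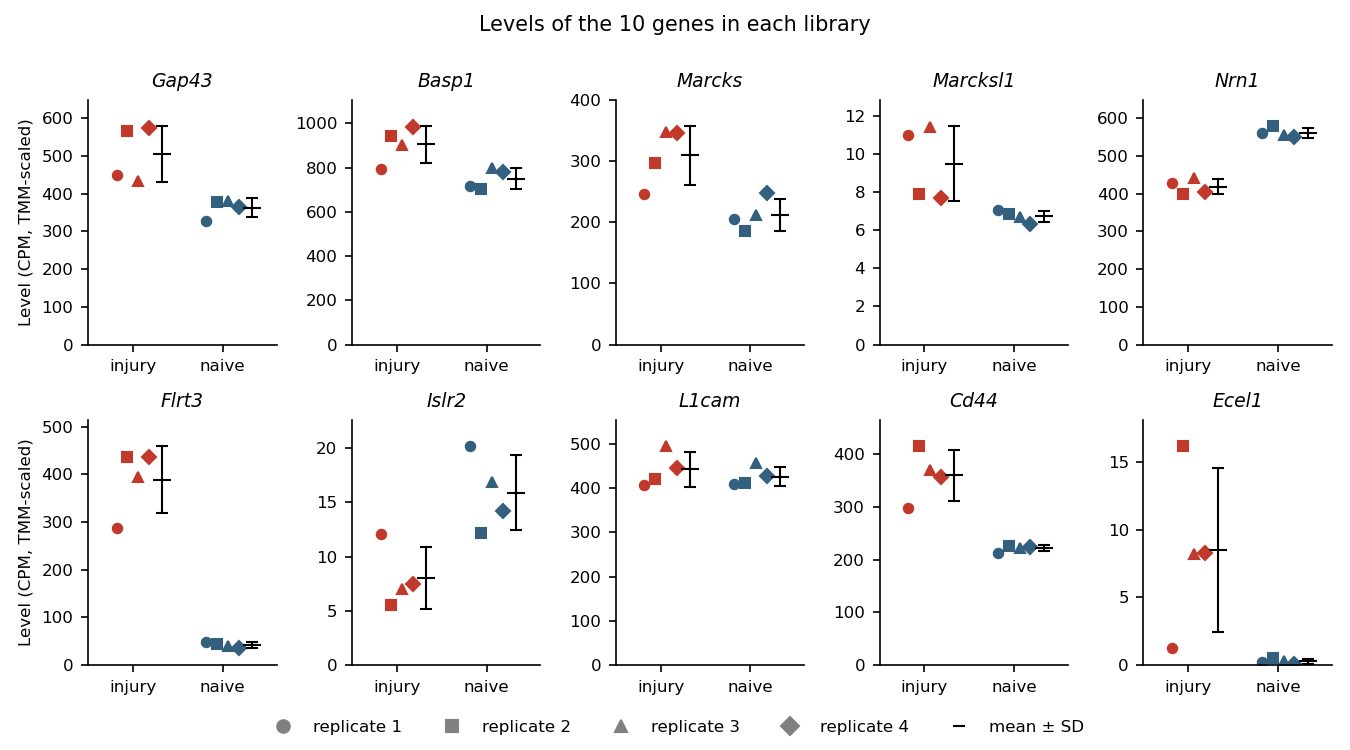
Level of each gene in each library, in TMM-scaled CPM (linear axes from 0, a different axis for each gene); symbols stand for the replicate, and the black bar is the mean ± SD of 4 libraries. Flrt3 was 288 to 437 CPM in injury libraries and 34.7 to 48.3 CPM in naive ones, whereas the L1cam values of the groups overlapped.

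The abundant inner-membrane proteins rose modestly. Gap43 (chromosome 16, 42248442 to 42340651, minus strand, GRCm38), the growth cone phosphoprotein, was at 448, 566, 434 and 573 CPM in injury replicates 1 to 4 and at 328, 379, 381 and 364 CPM in naive replicates 1 to 4. Every injury library was above every naive one, although injury replicates 1 and 3 were much nearer to the naive range than replicates 2 and 4. The means were 505 ± 74.4 CPM in injury and 363 ± 24.7 CPM in naive libraries (SD, n = 4 each, as for all means given), a log2 fold change of 0.48 ± 0.09 (SE; adjusted p = 0.00116). Basp1 (chromosome 15, 25363277 to 25413764, minus strand), the brain acid-soluble protein also called CAP-23, was at 792, 945, 902 and 985 CPM in injury and 719, 704, 799.6 and 782 CPM in naive replicates. Injury replicate 1 lay inside the naive range, so the groups overlapped. Its log2 fold change was 0.27 ± 0.06 (adjusted p = 0.00403), 1.21-fold, the smallest change among the called members.

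Marcks (chromosome 10, 37133375 to 37138920, minus strand) was at 246, 297, 348 and 346 CPM in injury and 205, 186, 211 and 247 CPM in naive replicates. Naive replicate 4, the highest naive library, was just above injury replicate 1, the lowest injury library. The log2 fold change was 0.54 ± 0.11 (adjusted p = 0.00808), 1.46-fold. Marcksl1 (chromosome 4, 129513581 to 129515985, plus strand), its smaller relative, was far more thinly counted, with 766 counts in all injury libraries and 600 in all naive ones. It was at 10.98, 7.87, 11.4 and 7.69 CPM in injury and 7.03, 6.83, 6.70 and 6.33 CPM in naive replicates. Injury replicates 1 and 3 were well above the naive libraries and replicates 2 and 4 only just above them, and the change did not pass the test (log2 fold change 0.50, 95% interval 0.08 to 0.92; adjusted p = 0.114). The interval covers the log2 fold change of Marcks.

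**Figure D2:**
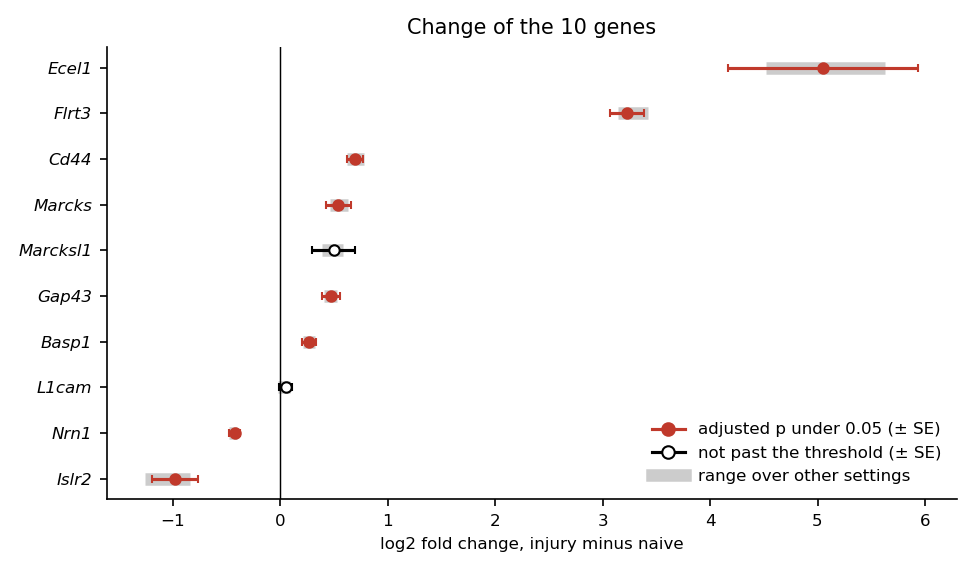
Log2 fold change (injury minus naive) of each gene from the edgeR fit, with its standard error; filled red points passed an adjusted p of 0.05, open points did not, and grey bars span the values under the other settings tried. Ecel1 (5.05) and Flrt3 (3.23) lie far to the right of the other members, and Nrn1 (-0.42) and Islr2 (-0.98) lie left of 0.

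The enzymes and partners that act on these inner-membrane proteins included genes that rose and genes that fell. Of 26 tested genes for protein kinase C isoforms, calmodulins, calcineurin, acyl transferases and phosphoinositide enzymes, 3 rose and 3 fell, where 8.12% of all genes rose and 4.47% fell, and the median log2 fold change was -0.04. At an unadjusted edgeR p under 0.05, 3 were higher and 9 lower. Prkca, the conventional protein kinase C alpha, fell to 351 ± 38.1 CPM in injury libraries, against 434 ± 21.4 CPM in naive ones (adjusted p = 0.00279), and the atypical isoform gene Prkcz fell to 39.3 ± 5.10 CPM in injury, against 53.6 ± 1.22 CPM in naive libraries (adjusted p = 0.00291). Zdhhc3, a palmitoyl transferase, rose to 89.6 ± 5.22 CPM in injury, against 69.9 ± 8.07 CPM in naive libraries (adjusted p = 0.00540). Pip5k1a, which makes the phosphoinositide these proteins bind, rose 1.21-fold (adjusted p = 0.0109). The third gene that fell was Prkcd and the third that rose Pcp4, a calmodulin-binding protein; both fall outside the naming rule and were added after their values were seen, to complete the counts.

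The share of growth cone actin genes called higher was near that of all genes. Of 36 tested, edgeR called 3 higher, where 8.12% of all genes were, and 0 lower, with 2 lower at an unadjusted p under 0.05 and 0 lower by DESeq2 or limma-voom; the median log2 fold change was 0.05. Arpc2, a subunit of the Arp2/3 complex that nucleates branched actin, was at 863 ± 42.0 CPM in injury libraries and 601 ± 20.03 CPM in naive ones (log2 fold change 0.52 ± 0.05, adjusted p = 8.22e-08). Actb, cytoplasmic beta-actin, rose 1.11-fold (adjusted p = 0.0223).

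Nrn1 fell. The gene (chromosome 13, 36725361 to 36735131, minus strand) was at 429, 399, 443 and 405 CPM in injury replicates 1 to 4 and at 562, 580.2, 557 and 549 CPM in naive ones. The naive libraries lay close together, and all injury libraries were well below all of them. The log2 fold change was -0.42 ± 0.05 (adjusted p = 3.01e-06). Fars2, a mitochondrial tRNA synthetase gene on the opposite strand, overlaps the 3′ end of Nrn1 and had 15.9 ± 1.22 CPM in injury and 20.4 ± 2.19 CPM in naive libraries. Whether counting used strand is not stated, so reads of this pair may not be fully parted. Nrn1l, the Nrn1 paralog, also fell, to 19.2 ± 2.41 CPM in injury against 34.2 ± 6.32 CPM in naive libraries (-0.84 ± 0.14, adjusted p = 1.00e-04).

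Other GPI-anchored neuronal proteins went both ways. Of 17 tested genes of this list other than Nrn1, 3 rose and 2 fell, where 8.12% and 4.47% of all genes did. The list's median with Nrn1 was 0.01. Gfra1, the GDNF co-receptor, was at 284 ± 45.8 CPM in injury and 116 ± 8.54 CPM in naive libraries (1.29 ± 0.09, adjusted p = 2.97e-08). Rgmb, a bone morphogenetic protein co-receptor, rose 1.45-fold (adjusted p = 0.00175). Gfra2, the neurturin co-receptor, fell to 133 ± 22.0 CPM in injury libraries, against 209 ± 31.1 CPM in naive ones (adjusted p = 0.00611). Prnp, the prion protein gene, was the remaining rise and is named to complete the count.

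Flrt3 showed the largest change among the well-counted members. The gene lies on chromosome 2 (140650914 to 140671469, minus strand), within the span of Macrod2 on the opposite strand. It was at 288, 437, 394 and 437 CPM in injury replicates 1 to 4 and at 48.3, 44.3, 39.6 and 34.7 CPM in naive ones. All injury libraries were several times above all naive ones, with injury replicate 1 the lowest of its group and naive replicate 1 the highest of its own. The means were 389 ± 70.3 CPM in injury and 41.7 ± 5.88 CPM in naive libraries, 9.36-fold in the fit (log2 fold change 3.23 ± 0.16, adjusted p = 1.47e-06). Macrod2 itself had 28.1 ± 7.01 CPM in injury and 24.5 ± 2.68 CPM in naive libraries (adjusted p = 0.464).

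The promoter of Flrt3 (RefSeq, GRCm38.p6, chr2:140671427-140671726, minus strand, 250 bases before to 50 after the start, with the start base in capitals) is shown as that of the member with the largest well-counted rise, and the promoter of Ecel1 (chr1:87156307-87156606, minus strand) as that of the member with the largest fold.
Flrt3: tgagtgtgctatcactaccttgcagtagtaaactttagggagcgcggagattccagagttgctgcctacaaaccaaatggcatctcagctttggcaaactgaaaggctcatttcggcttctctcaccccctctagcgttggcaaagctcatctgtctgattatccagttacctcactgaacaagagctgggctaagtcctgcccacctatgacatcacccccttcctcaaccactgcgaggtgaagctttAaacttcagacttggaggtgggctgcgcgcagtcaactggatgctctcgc
Ecel1: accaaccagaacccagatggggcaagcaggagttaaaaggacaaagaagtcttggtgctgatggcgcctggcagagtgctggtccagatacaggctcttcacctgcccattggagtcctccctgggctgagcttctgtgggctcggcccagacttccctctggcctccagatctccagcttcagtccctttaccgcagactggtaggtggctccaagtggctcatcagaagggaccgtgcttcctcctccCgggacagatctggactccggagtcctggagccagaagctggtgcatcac
Promoters were found for 7 of the 10 members (Basp1, Marcksl1, Flrt3, Islr2, L1cam, Cd44 and Ecel1), 10 in all since Islr2 and L1cam had several. They were searched on both strands for the letters TGANTCA (AP-1), TGACGTCA (CRE), AACAAT (SOX) and TTCNNNGAA (STAT). N stood for any base, so TGANTCA is looser than the usual AP-1 site. Over all 32851 promoters of the same length, 7.81%, 1.79%, 10.7% and 8.30% held these letters. Among the members the loose AP-1 letters occurred in 1 promoter of Islr2, a member that fell, and the other motifs in 0. The Islr2 match has A at the N position, and whether it is an AP-1 site was not tested. No match says only that these letters are not in this window. The Islr2 match spans chr9:58204319-58204325 and ends on the annotated start base, shown in capitals with 12 bases on each side.
Islr2: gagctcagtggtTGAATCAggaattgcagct

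Of the relatives of Flrt3, Flrt1 fell and Flrt2 did not pass the test. Flrt2 was at 13.9 ± 1.42 CPM in injury and 14.6 ± 3.81 CPM in naive libraries (adjusted p = 0.884), and Flrt1 fell to 22.9 ± 4.18 CPM in injury against 33.3 ± 1.15 CPM in naive libraries (-0.54 ± 0.12, adjusted p = 0.00367). Flrt1 falls outside the naming rule and was added after its values were seen. Of 10 Flrt-binding receptors (Unc5, latrophilin, Fgfr and Robo genes), 1 rose and 1 fell, where 8.12% and 4.47% of all genes did. The list's median was -0.13. Unc5b, a netrin and Flrt receptor, fell to 16.3 ± 4.80 CPM in injury against 31.4 ± 2.83 CPM in naive libraries (-0.95 ± 0.16, adjusted p = 2.17e-04), and Unc5d was at 5.26 ± 1.31 CPM in injury and 2.86 ± 0.200 CPM in naive libraries (0.88 ± 0.28, adjusted p = 0.0380).

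Islr2, also called Linx, a leucine-rich repeat and immunoglobulin domain protein that binds the TrkA and Ret receptors, fell. The gene (chromosome 9, 58196297 to 58204319, minus strand) was at 12.1, 5.54, 7.04 and 7.45 CPM in injury replicates 1 to 4 and at 20.2, 12.2, 16.9 and 14.2 CPM in naive ones. Injury replicate 1, the highest injury library, was just under naive replicate 2, the lowest naive one. The log2 fold change was -0.98 ± 0.21 (adjusted p = 0.00283), on 653 counts in injury and 1392 in naive libraries. The neighbouring gene Islr overlaps Islr2 on the same strand in the annotation, so the split of reads between them is uncertain; Islr had 2.83 ± 1.31 CPM in injury and 3.90 ± 1.51 CPM in naive libraries (adjusted p = 0.501).

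More of the other leucine-rich repeat membrane genes fell than rose. Of 32 tested genes of this list other than Flrt3 and Islr2, 1 rose and 12 fell, where 8.12% and 4.47% of all genes did, and the whole list's median log2 fold change was -0.41. Lrrn1, a neuronal leucine-rich repeat protein, fell to 126 ± 5.12 CPM in injury libraries, against 199.6 ± 8.35 CPM in naive ones (-0.66 ± 0.06, adjusted p = 4.00e-08). Rtn4rl1, of the Nogo receptor family, fell to 51.8 ± 4.73 CPM in injury, against 81.8 ± 7.32 CPM in naive libraries (adjusted p = 1.02e-05). Lingo1, a partner of the Nogo receptor, fell to 51.0 ± 3.71 CPM in injury, against 72.5 ± 5.49 CPM in naive libraries (adjusted p = 1.86e-04). Amigo3, another such partner, fell to 23.9 ± 3.46 CPM in injury, against 39.1 ± 2.76 CPM in naive libraries (adjusted p = 1.01e-04). The Nogo receptor gene Rtn4r itself had 7.68 ± 1.36 CPM in injury and 11.1 ± 0.842 CPM in naive libraries and did not pass (adjusted p = 0.0638). The gene that rose was Lrig1, which restrains the epidermal growth factor receptor, at 15.1 ± 3.08 CPM in injury and 6.29 ± 2.33 CPM in naive libraries (1.25 ± 0.23, adjusted p = 0.000604). Rtn4r and Lrig1 fall outside the naming rule and were added after their values were seen.

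**Figure D3:**
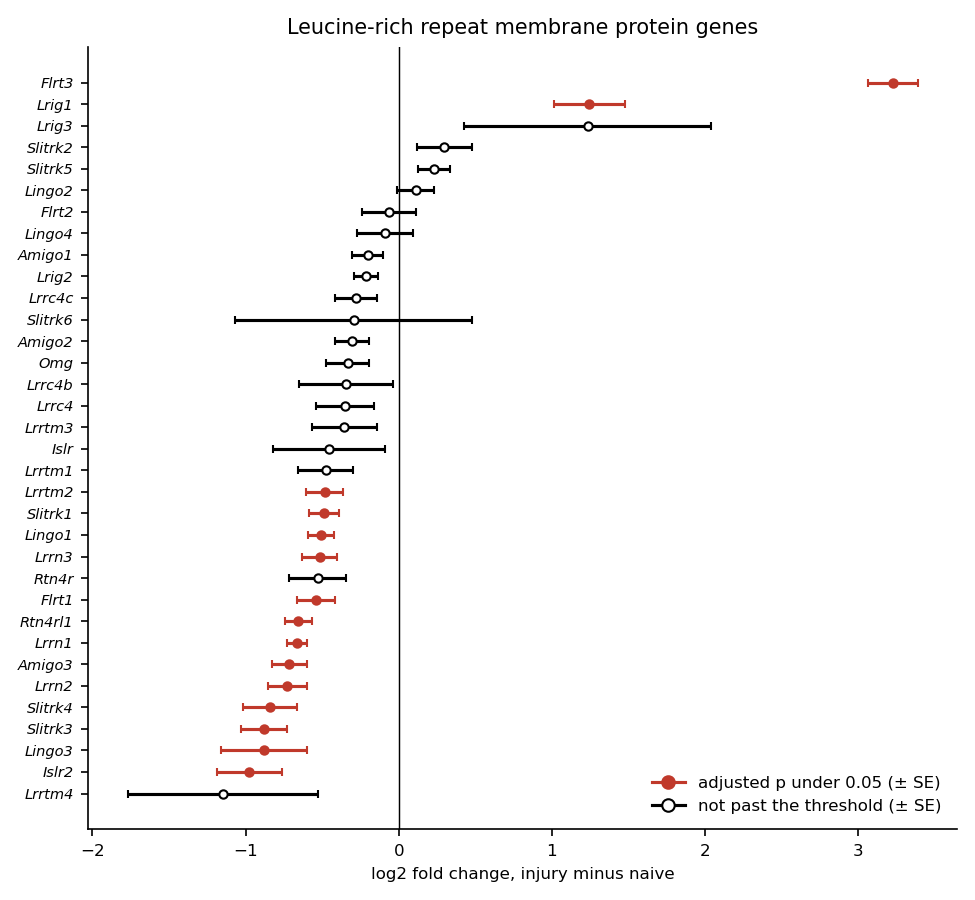
Log2 fold change (injury minus naive, edgeR, with its standard error) of the 34 tested leucine-rich repeat membrane protein genes, Flrt3 and Islr2 included; filled red points passed an adjusted p of 0.05. Flrt3 (3.23) and Lrig1 (1.25) are the filled points right of 0, and 13 filled points lie left of it.

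L1cam (chromosome X, 73853778 to 73896105, minus strand), the founding member of the L1 adhesion family, did not pass the test. It was at 407, 421, 495 and 446 CPM in injury replicates 1 to 4 and at 409, 412, 457 and 427 CPM in naive ones. The groups overlapped almost fully. The log2 fold change was 0.05 ± 0.06, with a 95% interval of -0.07 to 0.18 (adjusted p = 0.674). Of 22 tested genes of the immunoglobulin adhesion list other than L1cam, edgeR called 1 higher and 0 lower, where 8.12% and 4.47% of all genes were. There were 3 lower at an unadjusted edgeR p under 0.05 and 1 lower each by DESeq2 and limma-voom, and the list's median was 0.05. The gene called higher was Chl1, the close homolog of L1, at 285, 357, 291 and 365 CPM in injury replicates 1 to 4 and at 176, 181, 189 and 183 CPM in naive ones (0.83 ± 0.07, adjusted p = 2.04e-08).

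Cd44 (chromosome 2, 102811141 to 102901665, minus strand) rose and had the smallest adjusted p of the members. It was at 298, 416, 371 and 357 CPM in injury replicates 1 to 4 and at 213, 226, 223 and 225 CPM in naive ones. The naive libraries were nearly equal, and all injury libraries were above all of them. The log2 fold change was 0.70 ± 0.07 (adjusted p = 5.07e-07), 1.63-fold. Cd44 is also made by leukocytes, glia and fibroblasts. Summed macrophage markers (10 genes, 0 of 8 tested called by edgeR, DESeq2 or limma-voom, 3 higher at an unadjusted edgeR p under 0.05) were 17.5 to 27.2 CPM in injury and 12.7 to 24.7 CPM in naive libraries, and summed T cell markers (5 genes, none tested) were 0 to 0.932 CPM in injury and 0 to 1.18 CPM in naive ones, with Cd3g at 0 in all libraries. Summed neutrophil markers (5 genes) were 116 to 233 CPM in injury and 126 to 407 CPM in naive libraries, and summed endothelial and mural markers (8 genes) were 102 to 174 CPM in injury and 99.9 to 141 CPM in naive ones; in both lists 0 genes were called by edgeR, DESeq2 or limma-voom and 0 had an unadjusted edgeR p under 0.05. Summed fibroblast markers (6 genes, Pdgfra called higher) were 171 to 257 CPM in injury and 157 to 326 CPM in naive libraries. Median log2 fold changes were 0.10 over the macrophage, -0.33 over the neutrophil, 0.12 over the endothelial and mural and -0.14 over the fibroblast markers. The part of any of these cells in the difference in Cd44 was not tested.

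Some genes of the hyaluronan system and of the linkers of Cd44 to actin rose. Of 24 tested genes of this list other than Cd44, edgeR called 4 higher and 0 lower, where 8.12% and 4.47% of all genes were. At an unadjusted edgeR p under 0.05, or by DESeq2 or limma-voom, 0 were lower, and the list median was 0.13. Ezr (ezrin), which ties the tail of Cd44 to actin, was at 71.3 ± 3.98 CPM in injury and 37.6 ± 7.72 CPM in naive libraries (0.92 ± 0.11, adjusted p = 2.54e-06). Its relatives Msn and Rdx, added after their values were seen, had 469 ± 24.6 and 139 ± 9.97 CPM in injury and 428 ± 15.99 and 126 ± 9.87 CPM in naive libraries and were not called. Spp1 (osteopontin), a ligand of Cd44, rose 1.62-fold (adjusted p = 1.90e-04). Tnfaip6, a hyaluronan-binding protein, and Cemip, which takes part in hyaluronan breakdown, were low, at 4.69 ± 1.59 and 2.89 ± 0.414 CPM in injury and 1.49 ± 0.663 and 0.783 ± 0.466 CPM in naive libraries (adjusted p = 0.00455 and 0.0124).

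Ecel1 had the largest fold and the fewest counts. The gene (chromosome 1, 87147655 to 87156521, minus strand), known in rodents as DINE for its induction by nerve injury, had 29, 347, 160 and 137 counts in injury replicates 1 to 4 and 3, 11, 7 and 1 counts in naive ones. As levels these were 1.28, 16.2, 8.22 and 8.30 CPM in injury and 0.188, 0.501, 0.313 and 0.0337 CPM in naive replicates. Every injury library was above every naive one, but injury replicate 1 was far below the other injury libraries. The log2 fold change was 5.05 ± 0.89 (95% interval 3.02 to 7.08; adjusted p = 0.00585), a value that rests on 22 naive counts. Limma-voom gave 4.93 but did not call it (adjusted p = 0.313). Without both libraries of number 1, a setting chosen after seeing the data, the log2 fold change was 5.35 (adjusted p = 3.86e-07). That setting leaves out the lowest injury library, so its smaller p is not separate support.

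The other M13 peptidases did not pass the test. Of 3 tested genes, 0 were called by edgeR, DESeq2 or limma-voom, with 0 at an unadjusted edgeR p under 0.05. Mme (neprilysin) was at 6.49 ± 1.41 CPM in injury and 8.61 ± 1.01 CPM in naive libraries (adjusted p = 0.246). Ece1, the endothelin-converting enzyme, was at 119 ± 11.6 CPM in injury and 116 ± 3.93 CPM in naive libraries.

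Each of 5 members was also set against a relative within the same library. The log2 ratio of the relatives' CPM, with 0.5 CPM added, was compared between groups with a two-sided exact permutation test, for which 4 against 4 libraries allow no p below 0.0286, and p-values were adjusted over the 5 pairs. Flrt3 to Flrt2 was 4.74 ± 0.38 in injury and 1.51 ± 0.29 in naive libraries, a difference of 3.24 (adjusted p = 0.0476). Ecel1 to Ece1 was -4.11 ± 1.49 in injury and -7.30 ± 0.34 in naive libraries, a difference of 3.19 (adjusted p = 0.0476). L1cam to Chl1 was 0.45 ± 0.24 in injury and 1.22 ± 0.04 in naive libraries, a difference of -0.77 (adjusted p = 0.0476). In these 3 pairs the groups did not overlap, and each p was the smallest allowed, 0.0286. Flrt3, Ecel1 and Chl1 had already been called higher in the fit, and Flrt2, Ece1 and L1cam had not. These ratios therefore restate those calls and are not separate support. With the libraries paired by number an exact sign-flip permutation test gave adjusted p = 0.156 for each of the 3 ratios, where 4 pairs allow no p below 0.125. The calls also ended without any 1 of the naive libraries (adjusted p = 0.0714 to 0.0952). There 3 against 4 libraries allow no p below 0.0286, so the adjusted p over 5 pairs moves in coarse steps. The difference for Ecel1 to Ece1 was 5.07 with nothing added and 1.95 with 2 CPM added. Gap43 to Basp1 differed by 0.20 (adjusted p = 0.0714) and Marcksl1 to Marcks by -0.09 (adjusted p = 0.771), neither past the threshold, with overlapping groups.

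**Figure D4:**
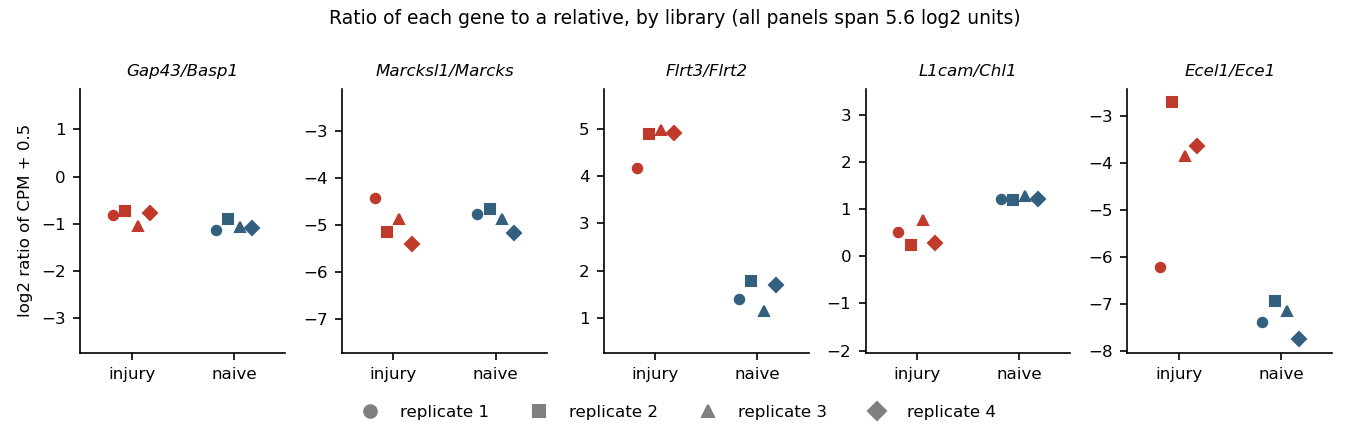
Log2 ratio of each gene to a relative in each library (CPM with 0.5 added, all axes spanning the same number of log2 units); symbols stand for the replicate. For Flrt3/Flrt2, L1cam/Chl1 and Ecel1/Ece1 the injury and naive libraries do not overlap, and for Gap43/Basp1 and Marcksl1/Marcks they do.

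Injury libraries did not keep 1 order across the members. Injury replicate 1 was the lowest injury library for 5 of the 6 members that rose (all but Gap43) and the highest for Islr2, and for Marcksl1 it ranked second. This place was not particular to the members. Injury replicate 1 was also the lowest injury library for all 5 axotomy check genes. On the first principal component it lay nearest to the naive libraries, at -19.0 against -34.0 to -27.6 in the other injury libraries. Set against the naive library of its own number, log2 ratios with 0.5 CPM added were 2.57 in repeat 1 and 3.29 to 3.64 in the others for Flrt3, and 1.37 against 3.42 to 4.06 for Ecel1. For Cd44 repeat 1 was at 0.49 and the others at 0.67 to 0.88. Gap43 did not share that order, with 0.19 in repeat 3 and 0.45 to 0.65 in the others. Every same-number ratio was above 0 for the 6 members that rose and for Marcksl1, and every ratio was below 0 for Nrn1 and Islr2. Of these genes only Basp1 and Marcks had overlapping groups. For the others any pairing of the libraries gives the same sign, so these signs are not separate support.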

How the data were processed

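The deposited values are whole-number read counts per gene symbol in 8 libraries (4 injury, 4 naive), made by the authors with bcl2fastq 2.17, STAR and HTSeq on GRCm38 (mm10), per the submitters' processing notes; which annotation, strand option and STAR or HTSeq version were used is not stated in these sources. Of 24060 table rows, 27 whose symbols had become dates (0.146% to 0.158% of counts) were left out. Genes passing filterByExpr (13639) were fitted with edgeR 4.0.16 (TMM, robust quasi-likelihood, R 4.3.3), with p-values adjusted over all of them; standard errors are the log2 fold change over the root of F. DESeq2 1.42.0 and limma 3.58.1 served as alternatives. The fits were tested first on simulated counts, with the same dispersion for all genes and 2-fold changes in well-counted genes. That simulation held no change as small as that of Basp1 and none on naive counts as few as those of Ecel1. A count of 3 equals 0.101 to 0.188 CPM, and replicates differed by 8.09 to 19.2 chi-square units per degree of freedom, above sampling noise. Each repeat pooled ganglia of 2 mice, and p-values cover only the spread between these libraries.

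The members and lists were chosen with earlier results of these data known. Per list, up to 4 called non-members with the smallest p are named, or the 1 with the smallest p where none was called, besides overlapping genes and the relatives used in ratios. One such gene of the actin list is not reported here. Per the design text both sides came from the same 2 mice per repeat, so equal numbers were taken as pairs. The labels do not state this pairing sample by sample. Deviations of same-numbered libraries correlated at 0.0352 to 0.0569, and others at -0.0840 to 0.0378. These correlations were all small and the ranges overlapped, so they do not settle the pairing. Other settings were another normalization, filter or tool, each library left out, and the pairing as a block.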

Additional observations from a re-analysis of the deposited data

How the results depend on the processing

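The calls of Gap43, Basp1, Marcks, Nrn1, Flrt3, Islr2 and Cd44 held under all 16 alternatives tried, with adjusted p-values up to 0.0356, and Marcksl1 (adjusted p 0.0840 to 0.305) and L1cam (0.413 to 0.994) were called under none. Ecel1 was not called by limma-voom (log2 fold change 4.93, adjusted p = 0.313) and fell out under the filter of a mean of 5 CPM. Genes called lower were 1001 with library totals in place of TMM, against 609, and 889 were called higher, against 1108. Leaving out 1 library gave 847 to 1156 genes higher and 452 to 703 lower, with 6 members higher and 2 lower throughout. Other leucine-rich repeat genes called lower ranged from 11 to 16. The replicate block, which pairs libraries of equal number, gave 1245 genes higher and 779 lower and changed no member's call. In the ratios, where an exact sign-flip permutation test over 4 pairs cannot go below p = 0.125, the block gave adjusted p = 0.156 for Flrt3/Flrt2 (3.24), L1cam/Chl1 (-0.77) and Ecel1/Ece1 (3.19). With 1 library left out the ratio differences were 3.11 to 3.42, -0.88 to -0.70 and 2.73 to 3.89. They were 0.16 to 0.27 for Gap43/Basp1 and -0.27 to 0.06 for Marcksl1/Marcks. Without any 1 of the naive libraries the adjusted p of the first 3 pairs was 0.0714 to 0.0952, and without any 1 of the injury libraries it was 0.0476. With such coarse steps of p, this contrast does not show that the ratios rest on the naive libraries. Leaving out both libraries of number 1 was chosen after seeing the data. Ecel1 is limited by depth, with 22 naive counts.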

Other observations

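For each called member with a mean of at least 5 CPM, the gene whose centred log2 profile over the 8 libraries lay closest was found among 9807 candidates, as a description with no test. Closest to Flrt3 was Sema6a, a transmembrane semaphorin, at 144 ± 21.9 CPM in injury and 15.6 ± 2.63 CPM in naive libraries (root mean square difference 0.144 log2 units, where Flrt3 itself spread by 1.62). Closest to Cd44 was Hn1, at 144 ± 16.3 CPM in injury and 87.9 ± 4.78 CPM in naive libraries (0.0425, spread of Cd44 0.367). Phactr2, a phosphatase and actin regulator, lay closest to Gap43 (0.0479, spread 0.275), at 275 ± 29.8 CPM in injury and 197 ± 11.04 CPM in naive libraries. Cdc42se2 lay closest to Basp1 (0.0408), Gnl2 to Marcks (0.0782), Dnajc6, the neuronal auxilin, to Nrn1 (0.0529) and Fam132a to Islr2 (0.239).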
